A study of Mus musculus with 5 samples.

Results

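The 10 genes described here carry survival and death signals from tumour necrosis factor (TNF) family receptors in B cells: the receptors Tnfrsf13c, Tnfrsf13b and Fas, the adaptors Traf1, Traf2 and Traf3, the ubiquitin ligases Birc2 and Birc3, the kinase gene Map3k14 and the caspase inhibitor gene Cflar. Members were all probe sets whose platform gene symbol is one of these names, a choice that used no measured value. The rule found 16 probe sets of 9 genes among 45101 probe sets in all. Traf3 was matched by no probe set and is not analysed here.

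The cells were germinal centre B cells, which divide and change their antibody genes during an immune response, sorted from the spleens of C57BL/6 littermates aged 12 weeks at day 7 after injection of sheep red blood cells. Cg1-Cre mice gave the 3 WT arrays, and the 2 REL arrays came from relfl/flCg1-Cre mice, in which the same Cre can delete loxP-flanked Rel alleles; Rel encodes c-Rel, a subunit of NF-kB. Both groups therefore carried Cg1-Cre, a Cre recombinase expressed from the immunoglobulin gamma 1 constant region locus that becomes active in B cells entering the germinal centre. The series design gives REL cells as eGFP+ and WT cells as eGFP−, so the groups also differed in this gate. Whether the arrays stem from separate animals is not stated in the labels, and the p-values cover only how far these samples spread, which may be technical variation.

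CD40 and the BAFF receptor (encoded by Tnfrsf13c) relay signals from T cells and from the cytokine BAFF that keep B cells alive. In resting cells, Traf2, Traf3 and the ligases encoded by Birc2 and Birc3 hold the kinase NIK (encoded by Map3k14) at a low level by marking it for degradation. Receptor engagement removes this brake, and NIK then drives noncanonical NF-kB, while Fas, which marks germinal centre B cells, starts a caspase cascade that the Cflar protein (c-FLIP) blocks.

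NF-kB proteins act by binding short DNA motifs, and Birc3, Cflar, Fas and Traf1 are textbook NF-kB targets. The 250 bases before the start site were therefore read for all 10 genes from RefSeq (GRCm38.p6), which gave 11 promoters, with 2 for Birc2. The stretches of 4 members are printed 5′ to 3′: Tnfrsf13b and Cflar, the genes with a probe set whose REL arrays both exceeded every WT array, and Fas and Birc3 for comparison. Capitals mark matches, on either strand, to the outer letters of the NF-kB (kB) motif, which are GGG, then 5 bases of any kind, then CC.
Tnfrsf13b: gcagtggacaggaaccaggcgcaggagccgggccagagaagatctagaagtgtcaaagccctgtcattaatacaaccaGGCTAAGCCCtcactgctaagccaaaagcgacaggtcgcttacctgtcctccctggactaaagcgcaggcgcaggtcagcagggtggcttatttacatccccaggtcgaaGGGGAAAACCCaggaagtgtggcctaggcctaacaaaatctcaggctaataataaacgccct
Fas: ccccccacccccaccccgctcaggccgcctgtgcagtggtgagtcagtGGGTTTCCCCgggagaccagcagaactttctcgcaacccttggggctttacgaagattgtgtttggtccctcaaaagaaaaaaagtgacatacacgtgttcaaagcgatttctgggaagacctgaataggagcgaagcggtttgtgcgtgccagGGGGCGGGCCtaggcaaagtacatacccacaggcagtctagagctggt
Birc3: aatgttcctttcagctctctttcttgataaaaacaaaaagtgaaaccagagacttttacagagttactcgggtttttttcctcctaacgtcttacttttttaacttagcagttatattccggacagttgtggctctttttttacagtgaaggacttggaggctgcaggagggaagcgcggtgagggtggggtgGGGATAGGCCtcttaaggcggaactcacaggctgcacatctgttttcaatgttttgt
Cflar: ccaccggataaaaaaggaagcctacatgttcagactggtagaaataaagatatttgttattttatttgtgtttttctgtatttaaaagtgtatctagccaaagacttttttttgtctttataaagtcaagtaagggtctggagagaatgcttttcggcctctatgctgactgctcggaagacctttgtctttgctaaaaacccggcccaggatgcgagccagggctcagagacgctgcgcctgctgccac

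These lie at chr11:61126505-61126754 (plus strand) for Tnfrsf13b, chr19:34290409-34290658 (plus strand) for Fas, chr9:7873171-7873420 (minus strand) for Birc3 and chr1:58711241-58711490 (plus strand) for Cflar. The outer letters were found in 7 of the 11 promoters, from 7 of the 10 genes, and in 45.8% of all 32851 RefSeq promoters of the same length. Of the 4 printed stretches, those of Tnfrsf13b, Fas and Birc3 held a match and that of Cflar held none. The full kB consensus, a stricter form of the same motif, was found in 1 of the 11 promoters, that of Traf3 (GGGGATTTCC), and in 3.9% of all promoters. A match is only a string of letters, and its absence from this window says nothing of binding elsewhere.

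Expression was read as MAS5 signals, which the authors deposited on a linear scale with each array scaled to a 2% trimmed mean of 500. Rel, the targeted gene, had signals of 492, 134 and 206 in WT, against 18.6 and 85.2 in REL, so the REL pair had the lowest values (−2.12, SE 0.73, limma adjusted p = 0.46). The labels do not say which exons are removed, so this probe set may lie outside the deletion. The germinal centre B cell list was read on 7 markers, and their summed signal was 56940 to 69803 in WT, against 58171 and 64100 in REL. Cd79a, Cd79b, Ms4a1, Bcl6, S1pr2, Rgs13 and Mki67 all had signals above 3000 on each array. Of these, Rgs13 alone was lower on both REL arrays (4514 and 3321) than on every WT array (4960 to 6058), a difference that the sum does not show. Macrophage markers differed between the groups: their summed signal over 16 genes was 1375 to 1922 in WT, against 6158 and 6539 in REL, with 11 of the 16 higher on both REL arrays than on any WT array. The list was uneven: on the WT arrays Vcam1 and C1qc were near 0 (0.669 to 2.46), while Mpeg1 was at 649 to 1002 and Cd68 at 297 to 461. Adgre1 was lower on both REL arrays (120 and 116) than in WT (154 to 435). Of 3 natural killer genes, Prf1 was at 555 and 616 in REL, against 175 to 411 in WT, and made up nearly all of their sum (558 and 622, against 184 to 419), while Ncr1 and Gzma were at or under 22.9 on every array. The summed T cell, neutrophil, plasma cell, follicular B cell and erythroid signals of the groups overlapped, though the sums hide single genes that did not. Of 5 plasma cell genes, Sdc1 was lower (42.6 and 42.4 in REL, against 125 to 455 in WT). Xbp1 was higher (2469 and 2805 in REL, against 1708 to 1985 in WT). Of 4 follicular B cell genes, Cr2 was lower (1896 and 1411 in REL, against 2440 to 3216 in WT). Of 3 erythroid genes, all dim, 1 was higher and 1 lower on both REL arrays. The part of macrophages and other cell types in the differences below was not tested. In bulk samples like these, fewer cells of a type and less RNA per cell cannot be told apart.

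**Figure D1:**
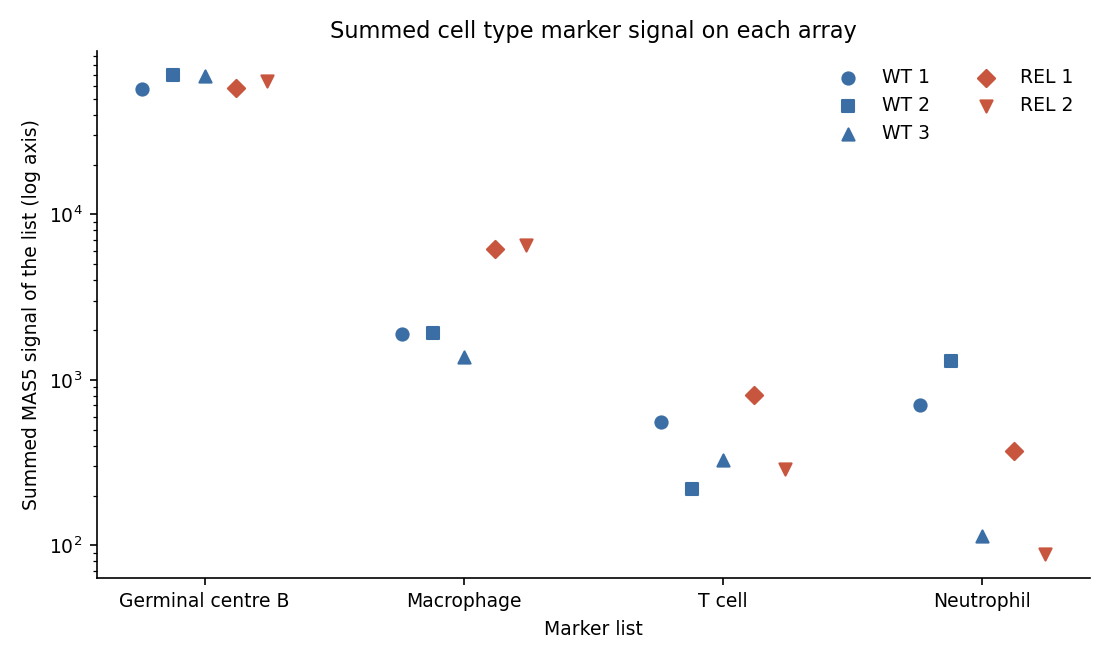
Summed MAS5 signal (log axis) of the germinal centre B cell, macrophage, T cell and neutrophil marker lists, 1 point per array, with WT arrays in blue and REL arrays in red. The macrophage sums of the REL arrays, 6158 and 6539, lie above the 1375 to 1922 of the WT arrays, and the germinal centre sums overlap.

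The comparison asked how these genes differed between the relfl/flCg1-Cre and the Cg1-Cre cells. None of the 9 measured member genes was called, and the groups' signals overlapped on 8 of them. The exception was Tnfrsf13b, 1.24-fold higher in REL (95% interval 0.876 to 1.75). Cflar was read by 5 probe sets, which all had fitted differences above 0, from 0.25 to 1.50 on the log2 scale, but the order of the REL arrays changed between probe sets. Differences are REL minus WT on the log2(signal + 16) scale, tested with limma over 12082 genes with the brightest probe set of each, and over 22200 probe sets for the others. A feature was called at a Benjamini-Hochberg adjusted p under 0.05, two-sided.

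Of all genes tested 0.00828%, a single gene, was called, and of all probe sets 0%. That gene was Vcam1, one of the macrophage markers, at 0.833 to 2.46 in WT, against 671 and 390 in REL. At an unadjusted p under 0.05 limma gave 0 of 9 member genes, against 8.24% of all genes, and 1 of 16 member probe sets, against 8.21% of all probe sets. The adjusted p of the member genes ran from 0.703 to 0.991. The REL pair exceeded all WT arrays for 1 of 9 member genes, where 9.53% of all genes did so, and for 2 of 16 member probe sets, where 10.4% did so. No member lay below, where 14.3% of genes and 13.5% of probe sets did. The fitted difference was above 0 for 4 of 9 genes, against 43.2% of all genes, and for 10 of 16 probe sets, against 45.6% of all. The median difference was −0.04 over the 9 genes and −0.07 over all genes. The gene counts lay near those of the whole array. Over the 16 member probe sets, several of them from Cflar, the median was 0.18, against −0.05 over all probe sets. A missed threshold does not show that levels were alike, so the intervals are given.

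**Figure D2:**
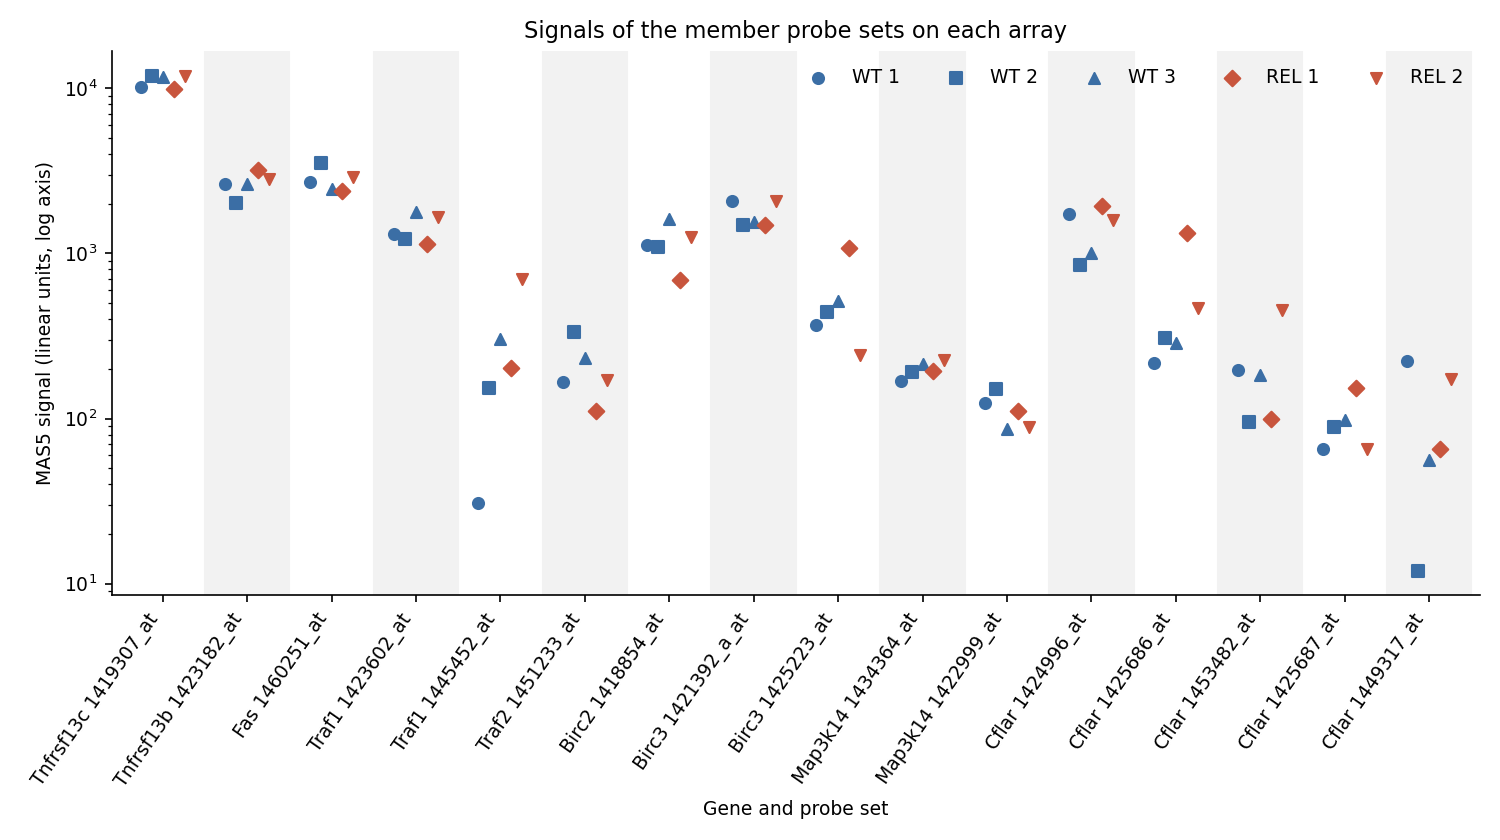
MAS5 signal (log axis) of the 16 member probe sets, 1 point per array, with WT arrays in blue and REL arrays in red. Within most probe sets the colours mix, and the red points both lie above the blue ones for Tnfrsf13b and for Cflar probe set 1425686_at; levels of different probe sets are not comparable.

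Tnfrsf13c, which encodes the BAFF receptor, had the steadiest signal of the members. It was at 10214, 11845 and 11779 in WT, against 9893 and 11958 in REL (probe set 1419307_at). REL replicate 1 was the lowest and REL replicate 2 the highest of the 5 arrays, so the WT arrays lay between them. The difference was −0.05 (SE 0.14, limma adjusted p = 0.962), with a 95% interval of 0.78-fold to 1.20-fold. This was the narrowest interval of the 9 genes, and its sign turned with quantile normalization (0.045) and with median centring of the arrays (0.12).

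Tnfrsf13b encodes TACI, a second receptor for BAFF that also binds APRIL and restrains B cell expansion. Its signals were 2639, 2025 and 2639 in WT, against 3195 and 2805 in REL (1423182_at). Both REL arrays were above every WT array, REL replicate 2 by a small margin. The difference was 0.31 (SE 0.22, limma adjusted p = 0.781), a 1.24-fold higher level with an interval that includes no change. Leaving out WT replicate 2, the lowest array, gave 0.18, and leaving out any other array gave 0.21 to 0.40.

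Fas, the death receptor, was at 2690, 3506 and 2456 in WT, against 2390 and 2906 in REL (1460251_at). REL replicate 1 was the lowest array and REL replicate 2 lay among the WT arrays. The difference was −0.11 (SE 0.23, limma adjusted p = 0.945), with an interval of 0.645-fold to 1.32-fold. Its sign turned with median centring (0.057), without WT replicate 2 (0.036) and without REL replicate 1 (0.027).

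Cd40, the receptor that gives the pathway its name, is not one of the 10 genes but was on the list of other pathway genes. It had signals of 2155, 1719 and 3610 in WT, against 1722 and 1720 in REL. Both REL arrays were at the level of WT replicate 2, and WT replicate 3 was the highest. The difference was −0.46 (SE 0.31, limma adjusted p = 0.759), −0.16 without WT replicate 3 and −0.69 without WT replicate 2. These values are from the brightest of its 3 probe sets. All 3 had the same sign, and their mean gave −0.27. Tnfsf13b, the gene for BAFF, which is made mainly by myeloid and stromal cells, was dim, with signals of 26.3, 47.2 and 65.7 in WT, against 44.1 and 8.28 in REL (−0.66, SE 0.57, limma adjusted p = 0.817; −0.003 without REL replicate 2, −1.31 without REL replicate 1, −0.44 without WT replicate 3 and −1.12 with a pseudocount of 1).

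Traf1 encodes an adaptor that NF-kB induces and that assists Traf2. Its brighter probe set (1423602_at) was at 1313, 1217 and 1779 in WT, against 1145 and 1660 in REL. The REL arrays spanned most of the WT range, with REL replicate 1 the lowest of all. The difference was −0.04 (SE 0.31, limma adjusted p = 0.991), with an interval of 0.607-fold to 1.56-fold. The dimmer probe set (1445452_at) was at 31.0, 152 and 303 in WT, against 201 and 696 in REL. REL replicate 1 lay within the WT range, and only REL replicate 2 stood above it. This gave 1.53 (SE 0.87, limma adjusted p = 0.697), and 0.67 without REL replicate 2, 2.39 without REL replicate 1, 0.76 without WT replicate 1 and 2.14 without WT replicate 3. The probe sets of Traf1 thus differed in sign, and the mean of both gave 0.75.

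Traf2 encodes the adaptor that brings the Birc2 and Birc3 ligases to the receptors. It was measured by 1 probe set (1451233_at), with signals of 166, 333 and 232 in WT, against 111 and 170 in REL. REL replicate 1 was the lowest array, and REL replicate 2 stood just above WT replicate 1. The difference was −0.70 (SE 0.57, limma adjusted p = 0.808), the lowest of the 9 genes. Its interval ran from 0.253-fold to 1.49-fold, and the value was −0.43 without REL replicate 1, −0.47 without WT replicate 2 and −0.98 without REL replicate 2.

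Birc2 and Birc3 encode cIAP1 and cIAP2, ligases that ubiquitinate NIK and RIPK1. The names were exchanged between these genes in older annotations, and the current platform names are used. Birc2 (1418854_at) was at 1122, 1093 and 1615 in WT, against 686 and 1262 in REL. REL replicate 1 was below every WT array and REL replicate 2 inside their range. The difference of −0.43 (SE 0.36, limma adjusted p = 0.816) rested on REL replicate 1: it was 0.006 without that array and −0.86 without REL replicate 2.

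Birc3 was read by a pair of probe sets. The brighter one (1421392_a_at) was at 2064, 1492 and 1561 in WT, against 1496 and 2073 in REL. Each REL array matched a WT array closely, and the difference was 0.06 (SE 0.28, limma adjusted p = 0.979, interval 0.679-fold to 1.60-fold). The dimmer one (1425223_at) was at 367, 444 and 517 in WT, against 1085 and 241 in REL. Here the REL arrays fell on opposite sides of the WT arrays, REL replicate 1 above and REL replicate 2 below all 3. The difference was 0.23 (SE 0.60, limma adjusted p = 0.96), and it was −0.82 without REL replicate 1 and 1.28 without REL replicate 2. On the brighter probe set REL replicate 2 was the higher of the REL arrays, the reverse order.

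Map3k14 encodes NIK, the kinase that the Traf and Birc proteins hold down by degradation, so its protein level can move without its mRNA. Probe set 1434364_at was at 168, 191 and 214 in WT, against 194 and 225 in REL. REL replicate 1 lay inside the WT range and REL replicate 2 slightly above it. The difference was 0.13 (SE 0.53, limma adjusted p = 0.979, interval 0.481-fold to 2.48-fold). Probe set 1422999_at, at 125, 151 and 86.6 in WT, against 111 and 88.8 in REL, gave −0.22 (SE 0.59, limma adjusted p = 0.961) with both REL arrays inside the WT range. With 1 array left out, the first ranged from 0.03 (without REL replicate 2) to 0.22 (without REL replicate 1), with 0.044 without WT replicate 1 and 0.21 without WT replicate 3. The second ranged from −0.41 (without WT replicate 3) to −0.056 (without WT replicate 2), with −0.36 without REL replicate 1 and −0.074 without REL replicate 2.

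Cflar encodes c-FLIP, which blocks caspase-8 at the Fas receptor, and it was read by 5 probe sets. The brightest (1424996_at) was at 1729, 851 and 1012 in WT, against 1931 and 1598 in REL. WT replicate 1 was at the level of the REL arrays, and the other WT arrays were lower. The difference was 0.61 (SE 0.35, limma adjusted p = 0.703), the highest of the 9 genes, with an interval of 0.896-fold to 2.61-fold. It was 0.91 without WT replicate 1 and 0.40 without WT replicate 2.

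The second Cflar probe set (1425686_at) was the single member probe set with an unadjusted p under 0.05. Its signals were 218, 309 and 287 in WT, against 1323 and 467 in REL. Both REL arrays were above every WT array, REL replicate 1 well above REL replicate 2. The difference was 1.50 (SE 0.53, limma adjusted p = 0.487). Without REL replicate 1 it was 0.76, and without REL replicate 2 it was 2.23, neither past the threshold (adjusted p = 0.64 and 0.2 in limma).

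The other 3 Cflar probe sets were dimmer, and on each the groups overlapped. Probe set 1425687_at, which the platform annotation derives from the same source sequence as 1425686_at, was at 65.1, 88.5 and 98.5 in WT, against 153 and 65.3 in REL. REL replicate 1 was again the highest array, but REL replicate 2 was level with the lowest WT array. Probe set 1453482_at was at 197, 95.7 and 183 in WT, against 99.9 and 457 in REL, so here REL replicate 2 was the highest and REL replicate 1 was near the lowest. Probe set 1449317_at was at 223, 12.0 and 56.2 in WT, against 65.5 and 174 in REL, all inside the WT range. Their differences were 0.25 (SE 0.61), 0.48 (SE 0.72) and 0.67 (SE 0.89), with limma adjusted p of 0.959, 0.921 and 0.902. Dim MAS5 signals vary widely on a log scale, and probe sets of 1 gene share its RNA and are not replicates.

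**Figure D3:**
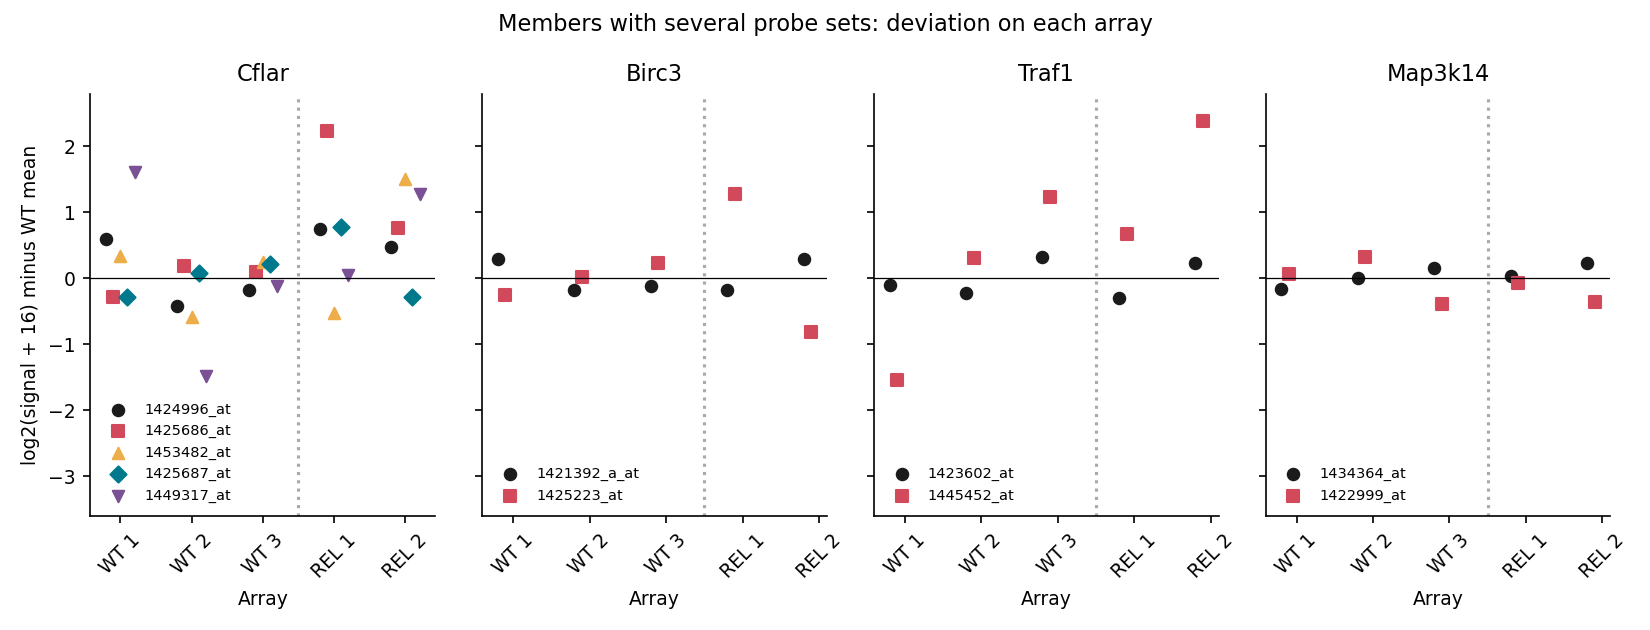
Deviation of log2(signal + 16) from the WT mean on each array for the 4 members with more than 1 probe set, 1 symbol per probe set. REL replicate 1 is at 2.23 and REL replicate 2 at 0.76 for Cflar probe set 1425686_at, while for 1453482_at they are at −0.53 and 1.50, and for Birc3 probe set 1425223_at at 1.28 and −0.82.

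**Figure D4:**
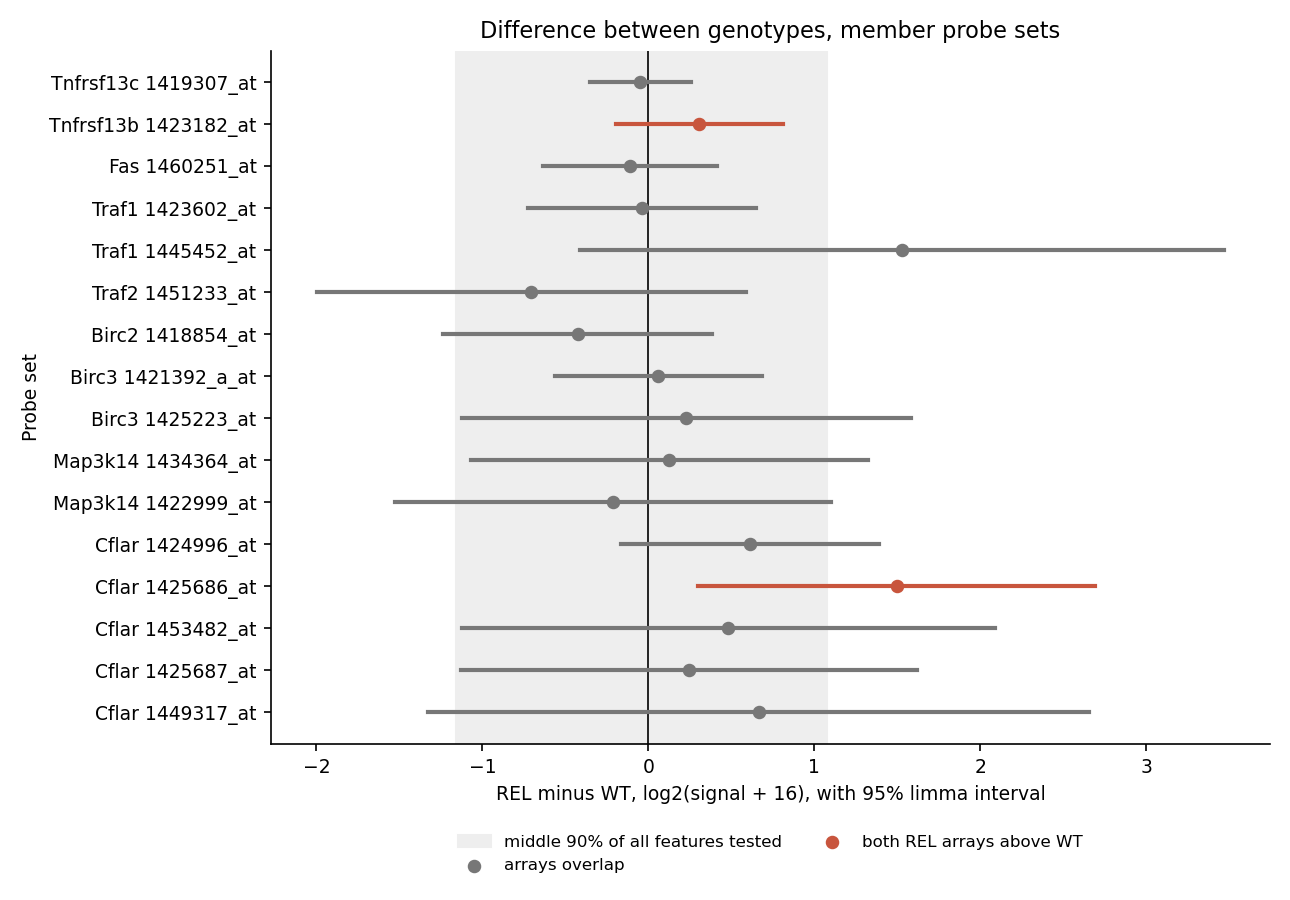
REL minus WT difference of the 16 member probe sets in log2(signal + 16), with 95% limma intervals from the probe set comparison. The grey band holds the middle 90% of all probe sets (−1.16 to 1.07); the intervals of all members but Cflar probe set 1425686_at include 0, and its estimate of 1.50 and that of Traf1 probe set 1445452_at (1.53) lie outside the band.

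In the median of the member genes, the REL arrays lay on opposite sides of the WT arrays, REL replicate 1 by a small margin. Measured against the WT mean, the 9 genes had median deviations of −0.11, −0.18 and 0.07 on the WT arrays, −0.19 in REL replicate 1 and 0.21 in REL replicate 2. Over the whole array these were −0.05, 0.01 and 0.06 on the WT arrays, against −0.03 and −0.09 in REL. The 16 member probe sets had medians of −0.12, 0.01 and 0.11 on the WT arrays, against −0.02 and 0.22 in REL. Over all probe sets, log2(signal + 16) correlated at 0.928 between the REL arrays, the lowest of all pairs. Pairs of WT arrays were at 0.947 to 0.955, and pairs of WT with REL at 0.931 to 0.942. Over the 16 member probe sets, REL replicate 1 was the highest array for 5 and the lowest for 5, and REL replicate 2 was the highest for 5 and the lowest for 1. WT replicate 2 was the highest for 3 and the lowest for 5, and WT replicate 1 the highest for 1 and the lowest for 4. WT replicate 3 was the highest for 2 and the lowest for 1. Such counts were not made for all probe sets, so they are not read as particular to the members.

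The profile of the brightest Cflar probe set over the 5 arrays was nearest to those of Taf1c, Tmem30a and Icmt, at Euclidean distances of 0.19, 0.22 and 0.23 log2 units between centred profiles. Taf1c encodes a subunit of the RNA polymerase I selectivity factor, Tmem30a a subunit of phospholipid flippases and Icmt a methyltransferase of prenylated proteins. In each of the 3, WT replicate 1 was likewise at the level of the REL arrays, which follows from choosing them by this distance.

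The rest of the pathway was read from a list of 35 genes, of which 28 were tested. None was called by limma, over all genes. The fitted difference was above 0 for 12, against 43.2% of all genes, and below 0 for 16, with a median of −0.06 against −0.07 over all genes. An unadjusted limma p under 0.05 was found for 2 of the 28, against 8.24% of all genes in either direction. Both were lower in REL, as were 4.99% of all genes at that threshold. The REL pair was under all WT arrays for 4 of 28 genes, where 14.3% of all genes were, and over them for 0, where 9.53% were.

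Both genes at an unadjusted p under 0.05 belong to the TAK1 kinase complex, which activates the IKK kinases. Map3k7, the gene for TAK1 itself, was at 3001, 1813 and 2266 in WT, against 1107 and 1548 in REL. Both REL arrays were below every WT array, with a difference of −0.81 (SE 0.29, limma adjusted p = 0.486), and among its 6 probe sets 1 had the opposite sign. Tab3, a ubiquitin-binding partner of TAK1, was at 1081, 542 and 795 in WT, against 352 and 403 in REL, a difference of −1.01 (SE 0.43, limma adjusted p = 0.59). The other partners, Tab1 and Tab2, were at −0.08 and 0.14. With 1 array left out Map3k7 ranged from −1.05 to −0.57 and Tab3 from −1.26 to −0.78. With median centring of the arrays Map3k7 was at −0.64 and Tab3 at −0.84, and no pathway gene had an unadjusted p under 0.05.

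Among the other adaptors, Tradd, which links TNF receptors to the death domain kinases, was at 3064, 3740 and 3788 in WT, against 2603 and 2601 in REL. Both REL arrays were below WT, and the difference was −0.43 (SE 0.20, limma adjusted p = 0.624). Among the 3 probe sets of Tradd 1 had the opposite sign, and their mean gave −0.29. With median centring Tradd was at −0.26. Traf3ip3, a Traf3-interacting protein gene, was at 0.41 (SE 0.30, limma adjusted p = 0.789), with REL replicate 1 at 4196 and the other 4 arrays at 1922 to 2371; without REL replicate 1 it was at −0.11 and without REL replicate 2 at 0.92. The remaining 5 adaptors ran from −0.42 to 0.81.

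Of the enzymes that add or trim ubiquitin in the pathway, the ligase gene Peli1 was at 0.63 (SE 0.43) and the A20 gene Tnfaip3 at 0.50 (SE 0.60), with limma adjusted p of 0.759 and 0.891. Peli1 was at 0.17 without WT replicate 3 and at 1.03 without WT replicate 2. Of its 4 probe sets past the filter 1 had the opposite sign, and their mean gave 0.29. Tnfaip3 was at −0.19 without REL replicate 2, at 0.07 without WT replicate 2, at 1.19 without REL replicate 1 and at 0.83 without WT replicate 1. In the death complex group, Rnf31, a subunit of the linear ubiquitin ligase, was at −0.45 (SE 0.48), with both REL arrays below WT (336 and 266, against 345 to 535). Diablo, which encodes an antagonist of the IAP proteins, was at −0.35 (SE 0.42), and the limma adjusted p of the pair was 0.868 and 0.889. With 1 array left out, Rnf31 ranged from −0.61 (without REL replicate 1) to −0.27 (without WT replicate 1), and it was at −0.28 without REL replicate 2. Diablo ranged from −0.60 (without REL replicate 2) to −0.11 (without REL replicate 1), was at −0.54 without WT replicate 2 and −0.20 without WT replicate 3, and was at −0.80 with the mean of its probe sets.

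**Figure D5:**
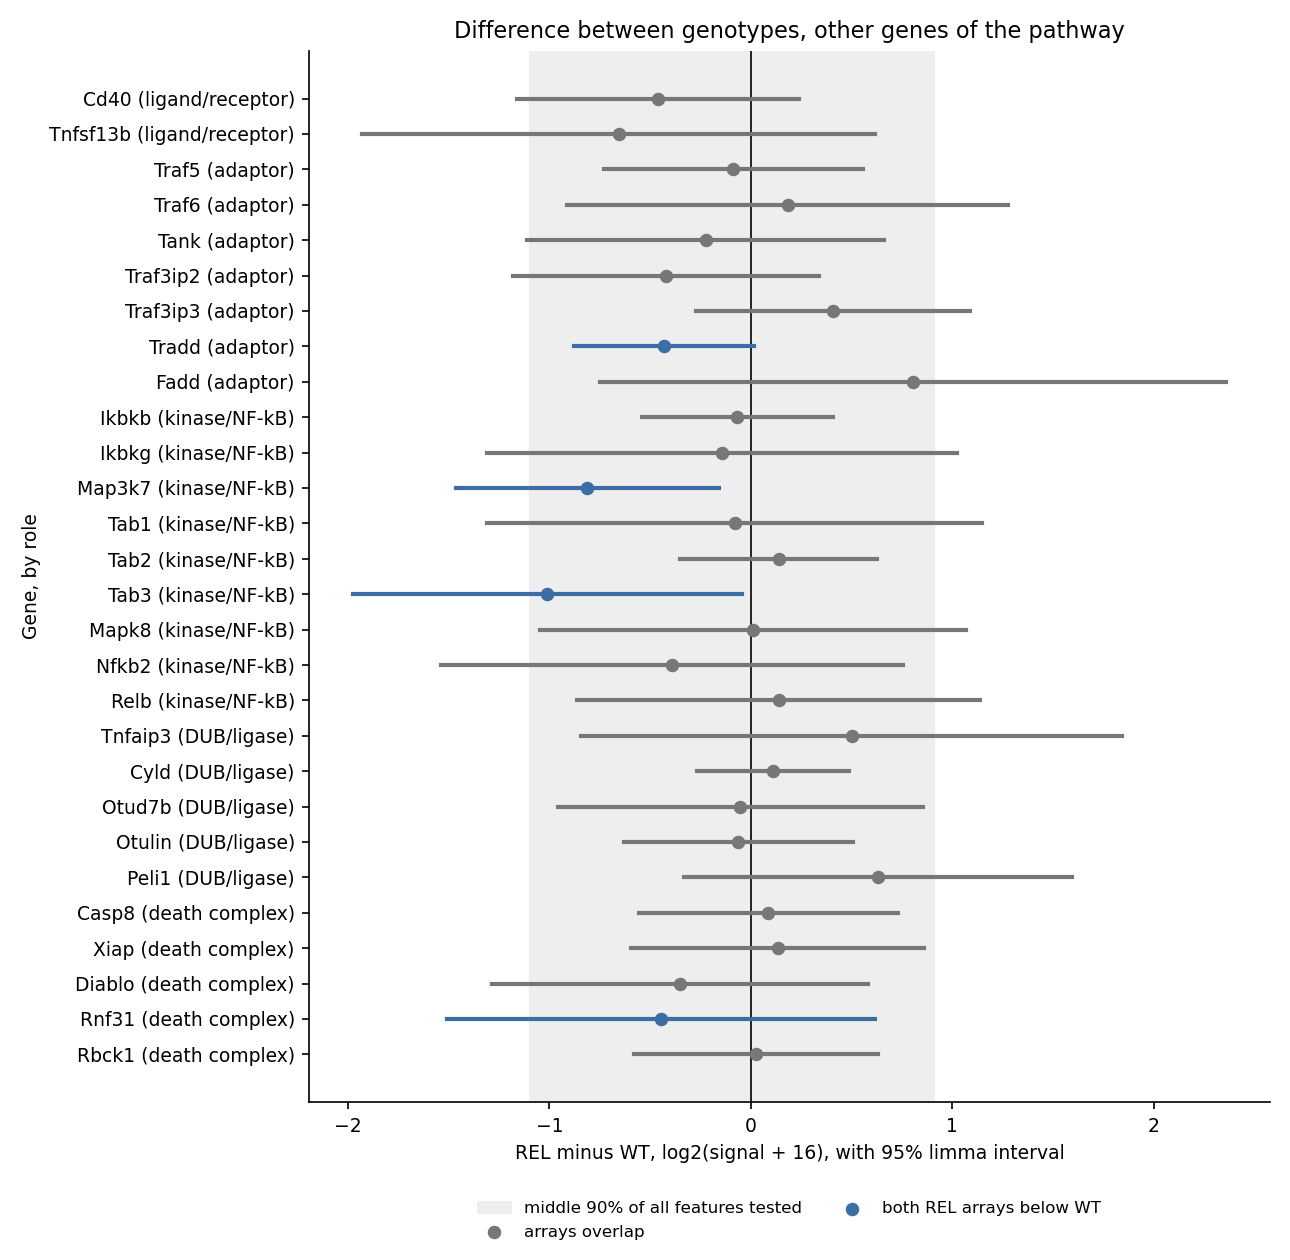
REL minus WT difference of the 28 other pathway genes in log2(signal + 16), with 95% limma intervals, ordered by role; the grey band holds the middle 90% of all genes (−1.09 to 0.91). The intervals of Map3k7 and Tab3 lie below 0, those of the other 26 genes include it, and Tradd, Map3k7, Tab3 and Rnf31 have both REL arrays below WT.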

How the data were processed

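Cells were sorted by flow cytometry and their RNA was amplified, per the labels' protocols, before labelling. The authors deposited linear MAS5 intensities of 5 single-colour arrays in 1 table; the name MAS5 comes from the submitters' processing notes, and its version is not given in the sources used here. Arrays were grouped by title, and all value columns were used. The number of arrays limits the precision.

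Signals were taken as log2(signal + 16), which understates changes of dim genes, with no further normalization. The 64 control probe sets, probe sets without a single gene symbol, and those in the lowest 40% by mean log2 (below about 23.1) were left out, and the brightest by mean log2 was kept per gene. The scale of this mean was not specified in the planned design: linear means were computed first and called 0 genes, and log2 means, which call 1, were adopted afterwards to match earlier processing of these data; no member result changed its direction or call. All 16 member probe sets passed. Features were fitted with limma 3.58.1 in R 4.3.3 (group as the single term, mean-variance trend, 3 residual degrees of freedom). The code was tested on simulated data with 200 of 12082 genes changed, over 20 runs. It called 3.7% of the 2-fold and 20.05% of the 4-fold changes, with 0.8 false calls per run. Most changes of these sizes were thus missed.

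The members, lists and tests were chosen with earlier results of these data known. All members were named; other pathway genes were the 2 with the smallest p in each of 5 role groups, Cd40, and the 3 genes with profiles nearest to the member gene of smallest p. Traf5, Traf6, Tank, Traf3ip2 and Fadd were given as a range, and Tab1 and Tab2 were added after their values were seen. Figures used Python 3.11.15 with matplotlib 3.10.9.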

Additional observations from a re-analysis of the deposited data

How the results depend on the processing

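No member gene or member probe set, and no other pathway gene, was called under any alternative run: pseudocounts of 1 and 64, a 60% filter or none, median centring, quantile normalization, a fit without the trend, a replicate block, averaged probe sets per gene, leaving out single arrays, and, chosen after seeing the data, means of linear signals for the filter and the choice of probe set. Over these, 120 of 135 values of member genes and 205 of 222 of member probe sets kept their direction, and Tnfrsf13b, Traf2 and Cflar kept it in all as genes. Over the whole array, 1 gene was called. The count was 0 with either pseudocount, without a filter, with the 60% filter, without the trend, with the mean of probe sets and with means of linear signals. It was 2 with quantile normalization, 3 with median centring, under which the all-gene median went from −0.07 to 0.10, and 0 to 8 with 1 array left out. The labels do not say that replicate numbers pair the samples, and deviations of same-numbered arrays correlated at −0.001 and 0.014. With the replicate block 18 genes were called, none of them a member, and Traf1 was at 0.12 (1423602_at). The cause of these changes was not tested.

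Directions turned as follows. With quantile normalization Tnfrsf13c was at 0.045. With median centring Tnfrsf13c was at 0.12, Fas at 0.057 and Traf1 (1423602_at) at 0.13. With the mean of probe sets Traf1 was at 0.75 and Map3k14 at −0.044. With 1 array left out, Tnfrsf13c ranged from −0.19 to 0.088, Fas from −0.25 to 0.036, Traf1 (1423602_at) from −0.30 to 0.23, Birc2 from −0.86 to 0.006, Birc3 from −0.17 to 0.29 (1421392_a_at) and from −0.82 to 1.28 (1425223_at), and Cflar from −0.28 to 0.78 (1425687_at), −0.078 to 1.47 (1449317_at) and −0.53 to 1.50 (1453482_at). Each of these turned without REL replicate 1 or 2, or without WT replicate 2 or 3.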
